A study of Mus musculus with 12 samples.

Results

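A set of 8 genes that mark retinal bipolar cells was followed through the 2 lists of differentially methylated regions (DMRs) made from whole retina at postnatal day 21 (P21). The genes were Grm6, Trpm1, Gng13, Prkca, Pcp2, Cabp5, Bhlhe23 and Grik1, 8 of the 21938 protein-coding genes of the GENCODE M21 annotation. Each locus was the mm10 gene with 5 kb on each side, and a region belonged to it when at least 1 bp overlapped. The 8 loci held 198 of the 193836 regions from whole-genome bisulfite sequencing (WGBS), which reads 5-methylcytosine (5mC) and 5-hydroxymethylcytosine (5hmC) together. They held 349 of the 592906 regions from bACE-seq, where enzymatic deamination silences 5mC so that 5hmC is read alone.

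The study compared C57 BL/6J control retinas without the Cre transgene (Cre-, genotype given as WT) with Tet tcKO retinas, in which loxp alleles of Tet1, Tet2 and Tet3 were deleted by a Cre transgene. The 12 libraries from P21 whole retina were split evenly, 3 of each genotype per assay, and the study's methods describe retinas pooled from a pair of animals. The transgene acts in retinal progenitors and is mosaic, so the study in-crossed Cre-positive animals to obtain 2 transgene copies, while the Cre- controls came from separate Cre- breeders. Whether those controls carried loxp alleles is not given in the sources used here. The lists give 1 mean level per group and region, with neither the values of single libraries nor read depth. No spread between replicates, interval or test could therefore be attached to any level below.

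Bipolar cells carry the photoreceptor signal to ganglion and amacrine cells. In ON bipolar cells, glutamate released in darkness acts on the receptor mGluR6, whose G protein holds the cation channel TRPM1 shut, and light relieves this block. OFF bipolar cells instead use ionotropic receptors of the AMPA and kainate kind. TET enzymes oxidise 5mC to 5hmC, the first step of active demethylation, and neurons are rich in 5hmC, above all within gene bodies. Whole retina mixes many cell types. By staining, the study reports fewer rods, more cones and a small increase in the proportion of bipolar cells in Tet tcKO retinas. A different mix of cell types, bipolar cells included, and a different level per cell therefore cannot be told apart here. The lists hold no expression values, so the labels of these genes as bipolar markers could not be checked against RNA.

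The bases just before the start site differed widely among the members in their number of CpGs, the dinucleotide at which both assays were read. To show that range, 200 bases upstream of the GENCODE start of 4 members are printed 5′ to 3′ on the strand of the gene (GRCm38 reference sequence from RefSeq), with CpGs in capitals. Prkca, on the minus strand at chr11:108343929-108344128, had 27 CpGs, Bhlhe23, on the minus strand at chr2:180776901-180777100, had 12, Trpm1, on the plus strand at chr7:64153635-64153834, had 1, and Cabp5, on the plus strand at chr7:13397932-13398131, had 0.
Prkca: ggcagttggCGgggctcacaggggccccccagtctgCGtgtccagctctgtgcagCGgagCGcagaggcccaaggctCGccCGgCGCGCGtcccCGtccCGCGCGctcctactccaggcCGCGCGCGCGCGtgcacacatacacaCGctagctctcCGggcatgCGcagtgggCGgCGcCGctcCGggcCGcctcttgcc
Bhlhe23: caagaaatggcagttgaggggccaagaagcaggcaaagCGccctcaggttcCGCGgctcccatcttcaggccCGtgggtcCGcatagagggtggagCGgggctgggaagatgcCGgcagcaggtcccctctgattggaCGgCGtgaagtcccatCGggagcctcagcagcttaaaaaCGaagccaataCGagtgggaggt
Trpm1: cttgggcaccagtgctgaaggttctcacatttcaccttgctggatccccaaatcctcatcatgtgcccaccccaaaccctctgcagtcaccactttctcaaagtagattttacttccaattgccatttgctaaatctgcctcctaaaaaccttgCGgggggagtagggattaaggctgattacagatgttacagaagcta
Cabp5: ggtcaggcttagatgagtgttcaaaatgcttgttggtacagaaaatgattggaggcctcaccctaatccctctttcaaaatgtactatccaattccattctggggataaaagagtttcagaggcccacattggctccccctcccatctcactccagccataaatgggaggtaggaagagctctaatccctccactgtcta

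None of these 4 stretches held a base of a WGBS region. A 5hmC region entered 1 of them, at Trpm1, where it covered the last 46 bases before the start.

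The regions that moved most lay elsewhere. Printed next are the WGBS regions with the largest rise at Prkca, Trpm1 and Grik1, each inside an intron, and the short regions upstream of the Grm6 and Gng13 starts, the members' only regions under 50% within 2 kb of a start that lay wholly upstream. They are given 5′ to 3′ on the gene strand in the same build, with CpGs in capitals. Prkca is shown whole at chr11:108193050-108193211 on the minus strand. Trpm1 is shown for its first 300 bases at chr7:64163430-64163729 on the plus strand, and Grik1 for 300 bases at chr16:87922001-87922300 on the minus strand. Grm6 is shown whole at chr11:50849239-50849325 and Gng13 whole at chr17:25716656-25716793, both on the plus strand. Each interval that reaches the end of a region runs 1 base past the listed end, to complete the last CpG.
Prkca intron: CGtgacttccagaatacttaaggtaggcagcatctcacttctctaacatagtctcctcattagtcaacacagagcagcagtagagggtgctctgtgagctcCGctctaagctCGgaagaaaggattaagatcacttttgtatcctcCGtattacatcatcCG
Trpm1 intron: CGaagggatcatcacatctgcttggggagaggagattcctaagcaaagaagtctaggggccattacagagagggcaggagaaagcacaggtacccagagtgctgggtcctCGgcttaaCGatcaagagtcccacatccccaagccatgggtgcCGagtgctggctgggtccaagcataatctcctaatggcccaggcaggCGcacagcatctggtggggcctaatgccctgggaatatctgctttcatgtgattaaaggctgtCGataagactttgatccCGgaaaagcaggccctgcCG
Grik1 intron: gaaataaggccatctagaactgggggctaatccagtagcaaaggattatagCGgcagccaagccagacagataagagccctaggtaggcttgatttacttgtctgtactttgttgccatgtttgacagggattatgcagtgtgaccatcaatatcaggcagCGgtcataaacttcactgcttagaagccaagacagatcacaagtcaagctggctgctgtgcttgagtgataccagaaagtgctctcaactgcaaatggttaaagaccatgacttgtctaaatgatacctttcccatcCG
Grm6 upstream: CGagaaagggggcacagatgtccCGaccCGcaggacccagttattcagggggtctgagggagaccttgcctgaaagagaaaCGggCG
Gng13 upstream: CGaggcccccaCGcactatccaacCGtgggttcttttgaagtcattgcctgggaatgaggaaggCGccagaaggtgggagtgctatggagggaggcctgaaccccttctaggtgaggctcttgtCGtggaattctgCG

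The 161 bp Prkca region carried 29.2% modified cytosine in Cre- retinas and 77.7% in Tet tcKO. The 424 bp Trpm1 region went from 24.4% to 62.0%, and the 533 bp Grik1 region from 41.6% to 79.9%. All 3 were below 50% in control retinas and above it in Tet tcKO.

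Across the 8 loci the direction was uniform. All 198 WGBS regions were higher in Tet tcKO, beside 98.6% of the whole list, and all 349 bACE-seq regions were lower in Tet tcKO, beside a list in which only 0.0353% of regions were higher. In the WGBS regions the mean level, weighted by the number of CpGs, climbed from 66.1% in control retinas to 82.6% in Tet tcKO retinas, or by 16.6 percentage points. In the bACE-seq regions 5hmC fell from 18.5% to 4.61%, by 13.8 points, so that 25.0% of the control level remained. Part of what remained can be failed conversion of unmodified cytosines, whose rate is given with Cabp5 below. No correction for it was made here, so the remaining share of 5hmC may be smaller. The corresponding means over the gains and losses of the whole lists were 56.7% to 74.1% for WGBS and 16.1% to 3.86% for 5hmC. The WGBS gains of all 7 genes with a gain started above the list's mean. For 5hmC the higher start was that of Prkca, since the other 7 members had 16.1% or less and together 13.6% in Cre-. Every listed region had been selected by the authors' caller for a difference, so these levels describe how far selected regions moved and do not test whether they moved.

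A WGBS gain lay at 7 of the 8 loci, beside 76.8% of all protein-coding loci, and a WGBS loss at 0 of 8, beside 4.9%. A 5hmC loss lay at all 8, beside 88.3%. Within 2 kb of the start site a WGBS gain lay at 5 of 8 members, beside 47.4% of all genes, and a 5hmC loss at 5 of 8, beside 78.2%. With 8 genes these counts are coarse, and nothing particular to the members is read from them.

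**Figure D1:**
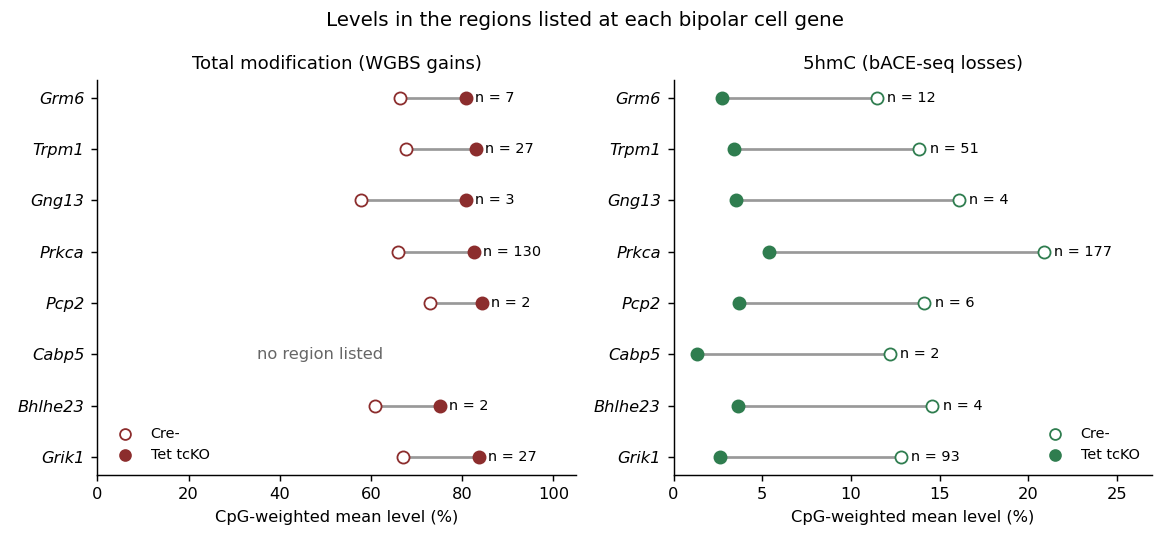
Each row is 1 bipolar cell gene, with the CpG-weighted mean level in percent on the horizontal axis, for the WGBS gains (left) and the bACE-seq losses (right) of that locus. Open circles are Cre-, filled circles Tet tcKO, and n is the number of regions, not of samples. WGBS levels end between 75.2% and 84.3% in Tet tcKO at the 7 genes with a region, and 5hmC ends between 1.31% and 5.37% at all 8.

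Grm6, which encodes mGluR6, lies at chr11:50850685-50866208 on the plus strand. Its 7 WGBS gains had 66.4% modification in Cre- and 80.9% in Tet tcKO, and they held 13.5% of the 399 CpGs at the locus. Its 12 bACE-seq regions fell from 11.5% to 2.73%. The fall of 8.73 points was the smallest of the 8 members, and Grm6 also had the lowest control 5hmC. The gains were spread along the locus: 1 upstream of the start window, 1 within it, 4 with their middle in an intron and 1 downstream. The nearest gain to the start, the 86 bp printed above, rose from 28.2% to 39.2% and lay 1361 bp upstream. It overlapped no 5hmC region, and no 5hmC region of the locus lay within 2 kb of the start. The largest 5hmC fall stood 3038 bp upstream of the start, at chr11:50847084-50847647, where 5hmC went from 21.3% to 2.45%. A WGBS gain from 64.7% to 78.8% covered most of the same stretch. Downstream of the gene, chr11:50869610-50870041 had the largest WGBS rise, from 65.8% to 86.8%. Where 5hmC regions had their middle in an exon of Grm6 the control level was 8.80% over 4 regions, close to the 9.98% over 4 regions in introns.

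Trpm1, the transduction channel of ON bipolar cells, lies at chr7:64153835-64269775 on the plus strand. Its 27 WGBS gains went from 67.6% to 83.0% and its 51 bACE-seq regions from 13.8% to 3.43%. They covered 19.2% and 51.5% of the 1227 CpGs. Trpm1 was the only member with a region across its GENCODE start site. This 5hmC region, chr7:64153789-64154584, fell from 16.8% to 2.45% and reached from 46 bp upstream to 749 bp into the gene. A WGBS gain began 233 bp into the gene, at chr7:64154068-64154584, and rose from 78.4% to 90.8%. This region was thus already highly modified in control retina, and only 4 CpGs lay in the 1000 bp around the start. The gene's largest rise, in the intron sequence printed above, began 9595 bp from the start. The longest gain, chr7:64156328-64157593, also lay near the start and rose from 59.0% to 85.6%. With the gene body cut into 5 equal parts from the start, WGBS gains held 28.8%, 40.1%, 5.73%, 16.0% and 11.6% of the CpGs, so most of the covered CpGs stood in the part before the middle of the gene. The rise averaged 21.8 points in the first part and 8.56 points in the middle one.

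An intron of Trpm1 holds the microRNA gene Mir211, at chr7:64205806-64205911, which was looked up after the values of the locus were seen. A bACE-seq region covered it and fell from 13.6% to 2.50%. The nearest WGBS gain was 2783 bp away and rose from 74.7% to 87.2%.

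Gng13, the G protein gamma subunit of the mGluR6 cascade, is short and lies at chr17:25717171-25719406 on the plus strand. The 5hmC losses of its locus covered the largest share of CpGs among the members: 4 regions held 91.8% of the 243 CpGs, a share above that of 99.9% of all genes. The gene is only 2236 bp of this 12236 bp locus, and 2 of the 4 regions overlap the neighbour Chtf18. The share is therefore not one of Gng13 alone. Over the 4 regions 5hmC went from 16.1% to 3.54%. The longest, 3909 bp with 111 CpGs, ran from 263 bp after the start through the rest of the gene and beyond, and fell from 13.3% to 2.61%. The remaining 5hmC regions took in both flanks. Total modification rose in 3 regions from 57.8% to 80.8%, by 23.0 points, the largest mean rise of the members. Of these, the 137 bp region 379 bp upstream of the start, printed above, went from 33.2% to 48.9%. The remaining 2 lay downstream of Gng13 within the neighbour Chtf18 and rose from 64.9% to 88.6% and from 59.7% to 84.1%. From 379 bp before the start to 263 bp after it, neither list had an entry. RefSeq gives Gng13 a second promoter, with its start 357 bp after the GENCODE start. The 3909 bp 5hmC loss runs across that start and covers 20 of the 25 CpGs of this promoter.

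**Figure D2:**
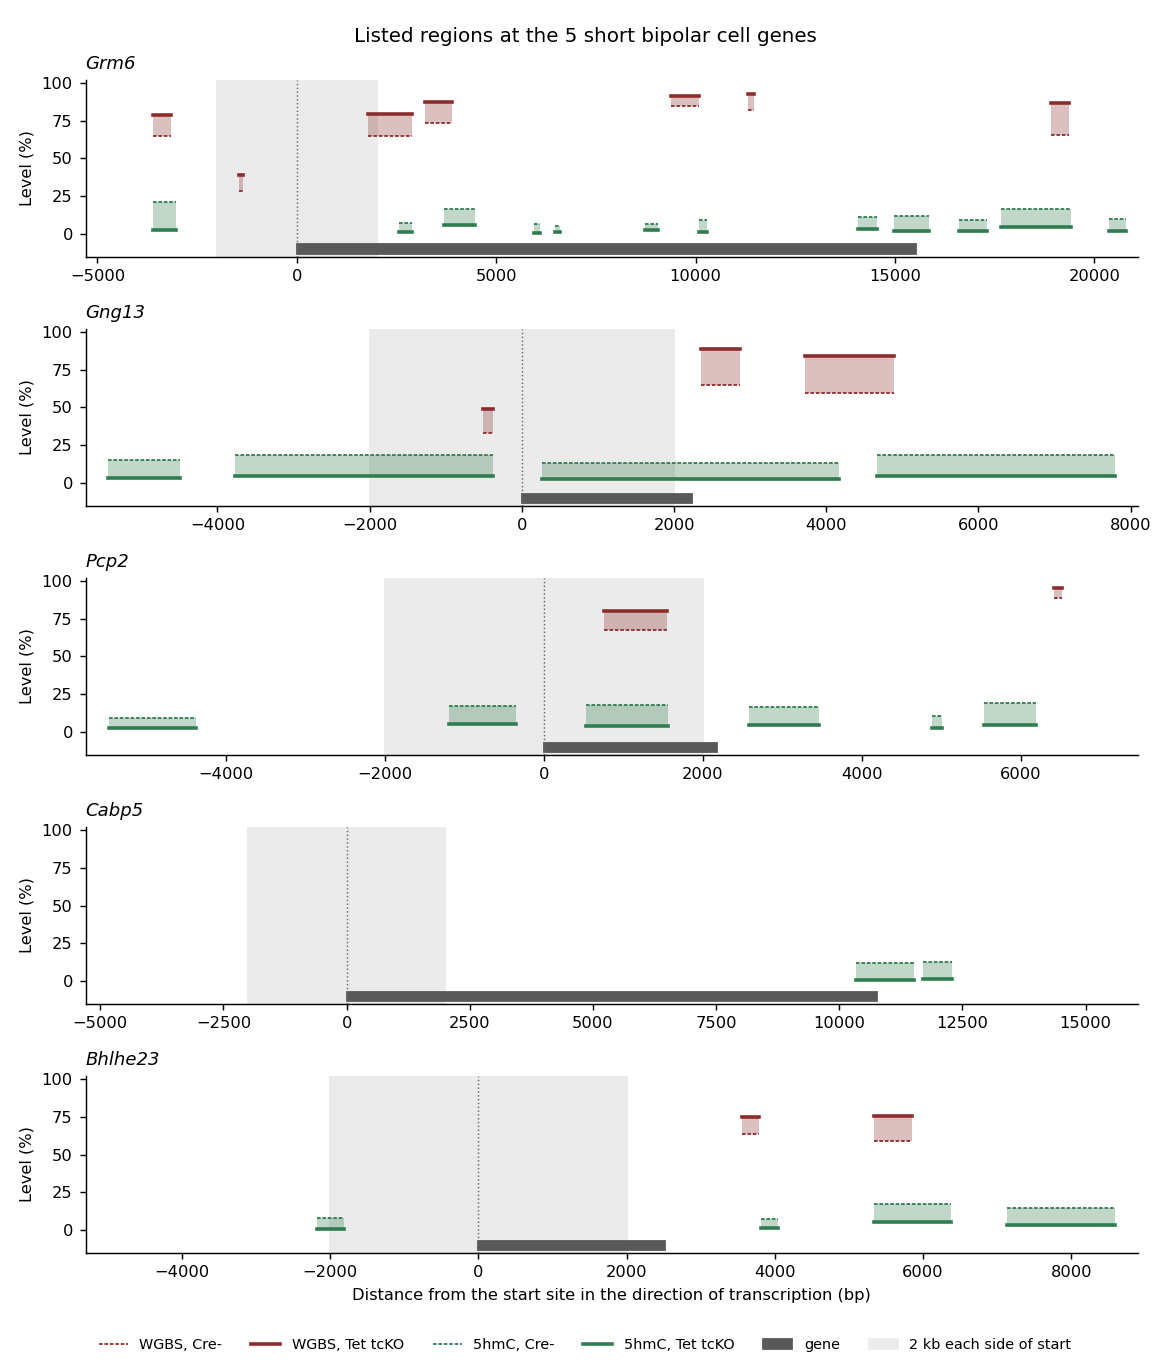
Each panel is the locus of 1 short bipolar cell gene, with the distance from the start site in bp on the horizontal axis and the level in percent on the vertical axis. Each listed region spans its own length between its Cre- level (dashed) and its Tet tcKO level (solid), with WGBS in red, 5hmC in green, the gene as a grey bar and the 2 kb on each side of the start shaded. Red bars sit above green ones throughout, and Cabp5 has only 2 green bars, 1 across its 3′ end and 1 past it. None of the 5 GENCODE start sites is crossed by a bar.

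Prkca, encoding protein kinase C alpha, the standard marker of rod bipolar cells, spans 410542 bp at chr11:107933387-108343928 on the minus strand. It supplied 130 of the 198 WGBS gains and 177 of the 349 5hmC losses, so it dominates any sum over the members. Its share of CpGs in WGBS gains was 28.1%, above 96.3% of all genes, and in 5hmC losses 75.9%, above 97.2%. Control 5hmC was the highest of the members at 20.9%, and it fell to 5.37%. Total modification rose from 65.9% to 82.7%. In control retina 79 of its 177 5hmC regions, or 44.6%, had 20% 5hmC or more. Among all 5hmC losses of the list that share was 19.1%.

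In its listed losses, control 5hmC was graded along Prkca. Over 5 equal parts from start to end of the gene, their mean 5hmC in Cre- was 25.7%, 22.5%, 21.2%, 18.5% and 15.3%. The fall in Tet tcKO was 18.8, 16.5, 15.8, 14.1 and 11.5 points in size. The losses held from 68.8% to 86.1% of the CpGs of a part, and the level at the other CpGs is not known. The share of CpGs in WGBS gains was 38.9%, 35.4%, 22.4%, 24.5% and 19.2%, lower in the last part than in the first but not falling at every step. The strongest 5hmC loss, at chr11:108159066-108161126, went from 37.8% to 7.11% with 14 CpGs. At the start itself, 94 CpGs lay in 1000 bp and no region of either list touched them. The regions closest by were the 5hmC region chr11:108344511-108348891, which began 583 bp upstream and fell from 27.6% to 8.07%, and the WGBS gain chr11:108345158-108345369, which rose from 75.3% to 87.5%. Both overlap Apoh, a gene on the opposite strand whose annotated span crosses the Prkca start. In an intron close to the start, chr11:108341210-108342450 was listed with the same ends in both assays: total modification rose from 34.5% to 56.4% while 5hmC fell from 20.6% to 6.45% over the same 16 CpGs.

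Below 50% in control retina stood 22 of the 130 Prkca gains, and 1 of the 130 was still below 50% in Tet tcKO. The intron region with the largest rise overlaps the antisense transcript Gm11655. A second, chr11:108258732-108259749 with 17 CpGs, went from 30.8% to 72.7%. The longest gain, 2137 bp with 32 CpGs, started higher and moved less, from 73.4% to 89.2%.

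Pcp2, a modulator of Go-type G proteins found in bipolar and Purkinje cells, lies at chr8:3623371-3625545 on the minus strand. Its 2 WGBS gains rose from 73.0% to 84.3%, by 11.4 points, the smallest mean rise among the members with a gain. The one inside the gene, chr8:3623998-3624785, lay over coding and untranslated exon sequence 760 bp from the start and rose from 67.3% to 80.2%. The other, 101 bp in the neighbour Xab2, went from 88.6% to 95.6%. Its 6 5hmC losses, read by bACE-seq, held 41.2% of the 165 CpGs and fell from 14.1% to 3.71%. A pair of them flanked the start, at 349 bp upstream and 532 bp downstream, with control levels of 17.2% and 17.7%. Within 2 kb of the start they held 70.5% of the 44 CpGs. Pet100, on the opposite strand, overlaps Pcp2, so the regions inside the gene belong to both.

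Cabp5, a calcium-binding protein of rod and some cone bipolar cells, lies at chr7:13398132-13408887 on the plus strand and was the member with the fewest listed regions. No WGBS region was listed at the locus. The 2 listed 5hmC regions both lay at or past the 3′ end of the gene, the nearer one 10346 bp from the start, and they fell from 11.9% to 0.803% and from 12.4% to 1.60%. Together 10.8% of the control level remained, the least of the 8 members. The study puts failed conversion of unmodified cytosines in bACE-seq at about 2%, and both Tet tcKO levels lie below it. The rank of Cabp5 therefore rests on values near background. The locus has 86 CpGs in 20756 bp, or 0.414 per 100 bp, the sparsest of the members, and 2 CpGs in the 1000 bp around its start. The smallest listed region has 4 CpGs. Whether the low number of CpGs bears on the absence of WGBS regions here was not tested, and that absence does not show that levels were equal.

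Bhlhe23, a basic helix-loop-helix factor needed for rod bipolar maturation, lies at chr2:180774381-180776900 on the minus strand. Its start was the most CpG-rich of the members, with 99 CpGs in 1000 bp and an observed over expected CpG ratio of 0.94. No region of either list lay within 1 kb of it, and no WGBS region within 2 kb. The 5hmC region nearest to the start held 4 CpGs 1810 bp upstream and fell from 8.25% to 0.635%. Both WGBS gains lay downstream of the gene in the non-coding transcript Gm14343. They rose from 63.9% to 75.0% and from 58.7% to 75.3%. The larger coincided with a 5hmC loss from 17.6% to 5.18%.

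Grik1, the kainate receptor subunit GluK1 used by OFF bipolar cells, spans 394366 bp at chr16:87895900-88290265 on the minus strand. Although nearly as long as Prkca it had 27 WGBS gains against 130, and they held 5.75% of its 3028 CpGs against 28.1%. It had 93 5hmC losses, which held 23.8% of the CpGs against 75.9%. All 27 gains had their middle in an intron and together went from 67.0% to 83.6%. Control 5hmC was 12.8% and fell to 2.63%. The regions were also shorter, with a median of 418 bp for 5hmC against 897 bp in Prkca. The gain nearest to the start lay 6362 bp into the gene, and 44 CpGs in the 1000 bp around the start were in no region. The largest 5hmC fall, at chr16:87916312-87916604, was from 28.2% to 6.00%. It lay in the last of 5 equal parts of the gene, as did 10 of the 27 gains, among them the printed intron region. There 44.5% of CpGs were in 5hmC losses, compared with 14.8% in the first part. The order was the reverse of that along Prkca, where 79.5% of CpGs in the first part and 68.8% in the last were in 5hmC losses.

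**Figure D3:**
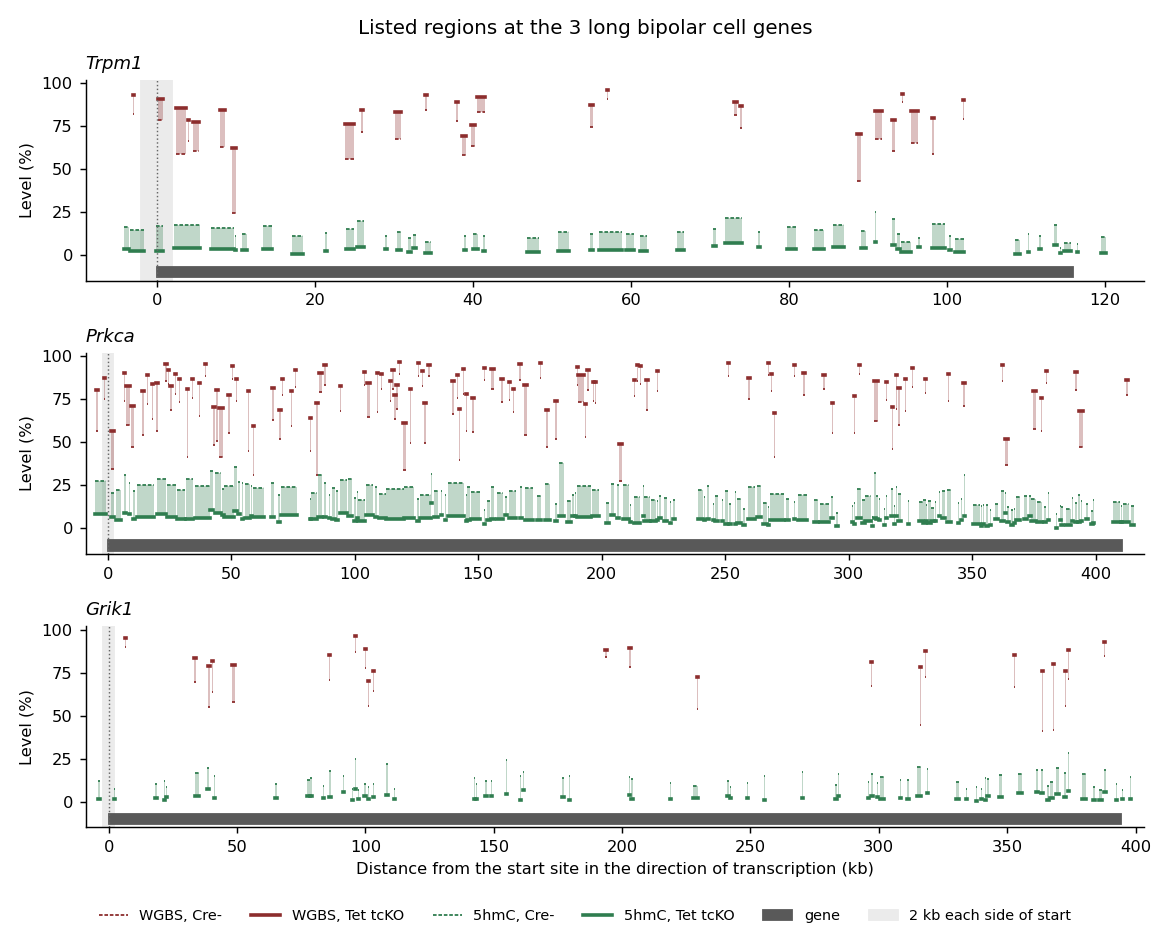
The 3 long bipolar cell genes are drawn with the distance from the start site in kb on the horizontal axis and the level in percent on the vertical axis. Each listed region runs from its Cre- level (dashed) to its Tet tcKO level (solid), with WGBS in red, 5hmC in green and the gene as a grey bar. Regions crowd Prkca from end to end, with the mean control 5hmC of its losses highest in the first of 5 equal parts. Grik1 has few gains, and its 5hmC regions spread along its length, 28 of 93 in the last of 5 equal parts.

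**Figure D4:**
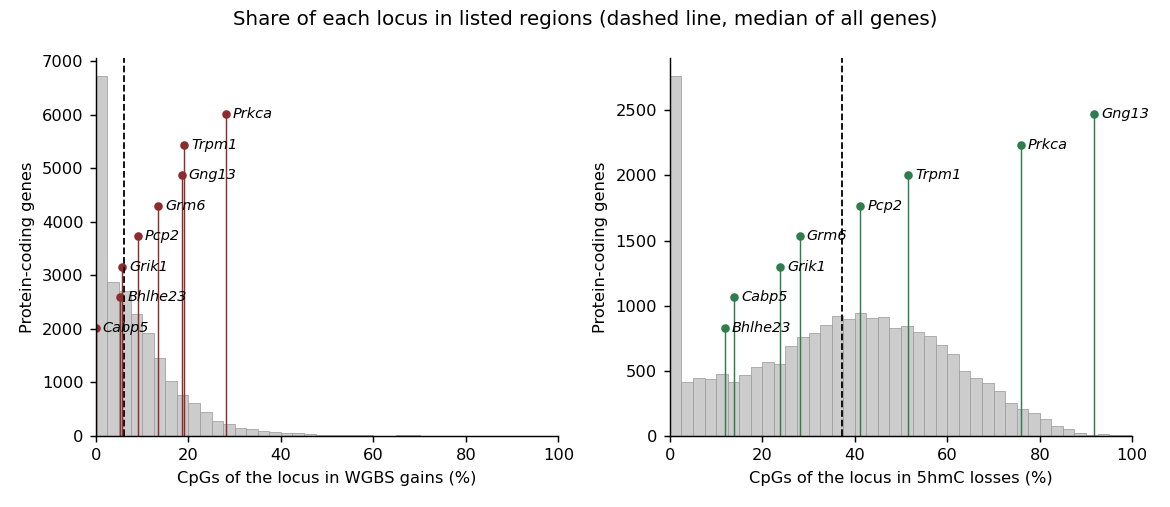
Grey bars count the 21938 protein-coding genes by the percentage of the CpGs of each locus inside WGBS gains (left) and 5hmC losses (right), and the dashed line is their median, 6.18% and 37.2%. Coloured stems mark the bipolar cell genes, with stem height set only to separate the names. Above the median lie 5 members for WGBS gains and 4 for 5hmC losses, with Prkca and Gng13 far to the right in 5hmC.

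Set against all genes, the members were spread over the distribution. Their median share of CpGs in WGBS gains was 11.3%, from 0% at Cabp5 to 28.1% at Prkca, beside 6.18% for all genes. For 5hmC losses it was 34.6%, from 11.9% at Bhlhe23 to 91.8% at Gng13, beside 37.2%. The mGluR6 cascade members (Grm6, Trpm1, Gng13) all had 13.5% or more of their CpGs in WGBS gains. The lowest of these, Grm6, stood above 78.3% of all genes, and 2 of the 3 Gng13 gains lay in Chtf18. The other 9 genes of the cascade had a median of 18.1%, from 5.01% at Rgs11 to 44.2% at Gnb5. The 10 bipolar transcription factors had a median of 18.3%, so a high share was not particular to the cascade. Whether it is a trait of the cascade was not tested. Among Prkca, Pcp2, Cabp5 and Bhlhe23 the share ranged from 0% to 28.1%.

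Most listed regions lay in introns. Classed by their middle, 181 of the 198 gains were intronic, 5 lay within 2 kb of a start (1 each at 5 genes), 2 in exons, 3 in the upstream flank and 7 in the downstream flank. Trpm1, Prkca and Grik1 held 24, 126 and 27 of the intronic gains. These genes span 115941, 410542 and 394366 bp, and no other member exceeds 15524 bp. The share of the loci that is intron was not measured, so no preference for introns is read from the counts. The 5 at the start sites went from 59.1% to 72.0%, the 181 in introns from 66.0% to 82.7% and the 2 in exons from 90.2% to 96.1%. Exons thus had the highest total modification in control retina, on only 2 regions. Control 5hmC was 13.0% in 16 exon regions and 19.1% in 301 intron regions, of which 171 were from Prkca. Without Prkca the levels were close, 12.8% in 13 exon regions and 13.2% in 130 intron regions, and at Trpm1 exons were the higher, 14.8% beside 13.8%. The share of 5hmC that remained in Tet tcKO was alike in every class, from 21.9% at start sites to 25.9% in exons. By gene this share ran from 10.8% at Cabp5 to 26.2% at Pcp2, and in single regions from 4.65% to 47.7%. The lowest Tet tcKO levels lie below the failed-conversion rate given for Cabp5, so this order is uncertain. None of these remaining shares was corrected for that rate. None of the 349 regions kept 50% or more, and only 0.169% of the losses in the list did.

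The rise is counted from the control level and cannot exceed what is left to 100%, so larger rises from low levels are partly built into the measure. The 30 gains that started below 50% had a median rise of 26.3 points and the other 168 of 12.1 points. In the whole list these medians were 21.6 and 13.8 points. Gains that start low were less common here than in the list, 15.2% against 28.2%, and 70.2% of the members' gains ended at 80% or more in Tet tcKO against 56.6%. Prkca supplied 97 of the 139 gains that ended so high, 74.6% of its own, beside 63.0% at both Trpm1 and Grik1. Only 3 of the 198 were below 50% in Tet tcKO, at Grm6, Gng13 and Prkca.

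Most WGBS gains lay where 5hmC was also listed. Most gains, 178 of 198 (89.9%), shared bases with a region of lower 5hmC, beside 81.1% of all gains in the list. By gene this was 124 of 130 at Prkca and 18 of 27 at Grik1, and without Prkca it was 54 of 68 (79.4%), so the higher share was that of Prkca. Conversely, 139 of the 349 5hmC losses (39.8%) overlapped a gain, 89 of them in Prkca, beside 24.1% of the list. In the 178 overlaps, total modification went from 66.0% to 82.7%, while 5hmC went from 20.6% to 5.32%. The WGBS level less the 5hmC level, the part read as 5mC, went from 45.4% to 77.4%. Thus 5hmC made up 31.2% of the modified cytosine in control retina and 6.43% in Tet tcKO. These are rough, since the boundaries of paired regions differ and no correction for failed conversion was made. By gene, the control share of 5hmC ran from 20.5% at Grm6 to 34.0% at Prkca, and the Tet tcKO share from 3.95% at Grm6 to 7.07% at Prkca. For the 2 intron regions printed above for Prkca and Trpm1 the ratio went from 72.9% to 6.63% and from 62.1% to 5.39%. The 5hmC means behind these ratios covered 55 and 45 CpGs, and the gains only 5 and 11. The 5hmC level of the printed stretches themselves is therefore not known. With the same 5hmC region, 2 other Prkca gains had control ratios of 26.7% and 37.9%.

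The 20 gains without a 5hmC region were small in CpG number, with a median of 5 CpGs against 8, and rose by a median of 11.4 points against 13.6. Of these, 9 were at Grik1 and 6 at Prkca, while 124 of the 178 others were at Prkca. Within Grik1 the order was the opposite, with a median rise of 18.5 points without and 14.2 points with a 5hmC region, and a median of 6 CpGs in both. Across the 178 overlaps the fall of 5hmC and the rise of total modification were only weakly related (Pearson's r = -0.23 and Spearman's rho = -0.25 between the 2 signed changes). These points share libraries and neighbouring CpGs, and 124 of them lie in Prkca. Each gain was paired with the mean of whole 5hmC regions, often over more CpGs than the gain. The same 5hmC region could also serve several gains, since the 178 gains drew on 139 losses. The size of the relation is therefore not read further.

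**Figure D5:**
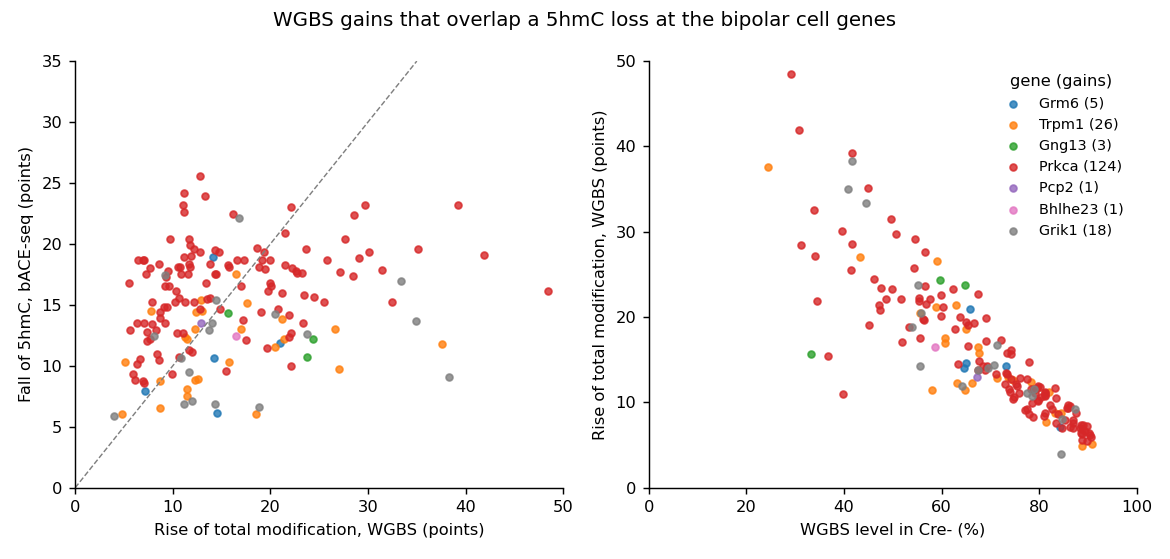
Each point is 1 of the 178 WGBS gains that overlap a 5hmC loss, coloured by gene. The left panel plots the fall of 5hmC against the rise of total modification, both in percentage points, with equality dashed, and the right panel the rise against the WGBS level in Cre- in percent. The rise exceeds the fall in some regions and not in others, and the largest rises, up to 48.5 points, belong to regions that were below 50% in Cre-.

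In all, 13 of the 198 gains and 18 of the 349 5hmC losses also overlapped another protein-coding or long non-coding gene of the annotation (small RNA genes such as Mir211 were not counted), so they cannot be given to a bipolar gene alone. This touches both gains of Bhlhe23 and of Pcp2 and 2 of the 3 of Gng13. It touches 6 of 130 at Prkca and 1 of 7 at Grm6. Among the 5hmC losses it touches 2 of 4 at Gng13, 4 of 6 at Pcp2 and 3 of 4 at Bhlhe23.

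A set of 4 short motifs was counted on both strands in the RefSeq promoters, 250 bases before to 50 after the start, for 7 members (Grik1 was not matched). TAATCC, the core bound by Otx2 and Crx, was found at Cabp5 and Trpm1, beside 7.06% of all promoters. CAGATG, an E-box, was found at Trpm1 and Pcp2, beside 17.2%. TAATTA, a homeodomain core, and the E-box CAGCTG were found at none of the 7 promoters counted, beside 5.29% and 16.3%. Where RefSeq gives a member several promoters, the one nearest to the GENCODE start was counted, and a more internal promoter of Pcp2 holds 1 match to TAATTA. In the central 300 bases of the 198 gains TAATCC occurred in 33 (16.7%), beside 15.3% of all gains. The printed Grik1 stretch holds 3 matches to TAATCC and the Prkca stretch 1. These are matches of letters and not sites shown to be bound.

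A wider set of 25 bipolar cell genes was read in the same way. All 25 had a WGBS gain, beside 76.8% of protein-coding loci, 1 had a WGBS loss as well (Prdm8), beside 4.9%, and 24 had a 5hmC loss, beside 88.3%. Their median share of CpGs was 14.8% in WGBS gains and 45.2% in 5hmC losses. The other 9 genes of the mGluR6 cascade had medians of 18.1% and 61.8%. Among them Gnb5, the beta subunit that partners RGS proteins, had the highest share in WGBS gains, 44.2%, and Rgs11, a GTPase-activating protein for Go, the lowest, 5.01%. At Gnb5 the level rose from 58.8% to 81.8% and at Rgs11 from 46.9% to 63.7%. For the 10 transcription factors the medians were 18.3% and 27.2%. The only one of the 25 without a 5hmC loss was Isl1, named after its values were seen, whose single gain went from 2.94% to 4.50%. Among 6 calcium-binding and other markers the median was 4.62%, with Tmem215 highest at 26.1% and Tacr3 lowest at 1.32%.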

How the data were processed

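WGBS and bACE-seq had been run on P21 whole retina, 3 libraries of each genotype per assay. Per the submitters' processing notes and the study's methods, reads were trimmed (Trim Galore 0.4.4), aligned to mm10 (Bismark 0.18.2, SAMtools 1.15.1), and CpG calls were extracted (MethylDackel 0.6.1). Regions were called with DSS, which smooths levels over neighbouring CpGs. For each region the authors deposited the mean methylation fraction of each group, printed here as percent. The deposited difference and area statistic hold the authors' own comparison and were not used. Sequencing depth and the values of single libraries are not in the lists, so precision is unknown and no test was made.

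Regions were assigned to GENCODE M21 genes with 5 kb on each side by an overlap of at least 1 bp. Group levels were weighted by CpGs, and changes are Tet tcKO minus Cre-. Shares of CpGs were counted on the GRCm38 sequence and compared with all 21938 protein-coding genes. All region ends fell on a CpG of that sequence. The regions named for each gene were the nearest to the start, the one with the largest difference and the longest, and others were named after their values were seen. The 5 equal parts of long genes, the level classes, the motif counts in gains and Mir211 were added after the values were seen. The members and lists were chosen with earlier results of these data known. Alternatives varied the flank, the start window, the minimum CpG number, the minimum difference and the weighting. Values without Prkca were added after the data were seen. Scripts used Python 3.11.15, pandas 2.3.3, NumPy 2.4.6, SciPy 1.17.1 and matplotlib 3.10.9. Only their counting of overlapping bases, CpGs and regions was checked on simulated data. A gene of the wider list is not reported by name here.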

Additional observations from a re-analysis of the deposited data

How the results depend on the processing

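Of 90 values under other settings, 63 stayed close to the reported ones and 27 moved. The levels were taken within gains or within losses, so their direction could not reverse. The counts of WGBS losses and 5hmC gains were 0 and had to stay 0 under settings that only remove regions. Those values are among the 63 and say nothing on robustness. A count was held close within 1.5 times, a share within its exact binomial 95% interval over CpGs, which covers counting only, and a level within the SD between members. A flank of 10 kb gave 17.8% of CpGs in WGBS gains. Regions of at least 10 CpGs left 74 gains and 183 5hmC losses, with 11.2% and 43.7% of CpGs, and 3 members with a gain near the start. A difference of at least 0.1 left 232 5hmC losses and shares of 14.7% and 43.2%. A difference of at least 0.2 left 50 gains (50.1% to 75.9%, a rise of 25.8 points) and 17 losses (30.1% to 7.22%, a change of -22.9 points), with shares of 5.92% and 3.10%. Without Prkca and Grik1, 5hmC went from 14.1% to 3.39%, a change of -10.7 points. In a further setting, without Prkca alone and chosen after the data were seen, control 5hmC was 13.6% in all losses and 13.2% in introns, and 79.4% of WGBS gains overlapped a 5hmC loss. Counted in bases the shares were 9.87% and 35.9%, and as the equal-weight mean of loci 12.4% and 42.3%. With a start window of 1 kb, 3 members had a WGBS gain there (Trpm1, Gng13 and Pcp2). No replicate could be left out because the lists hold group means only. No paired analysis was possible because the lists carry no replicate values and no result comes from a test. Read depth, which is not in the lists, sets how small a change could be listed, so a stretch without a region is not shown to be equal between groups.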
